A study of Rattus norvegicus with 7 samples.

Results

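The tachykinin, cholecystokinin and neurotensin systems were examined in the whole brain of alcohol-naive rats. Members were taken as every transcript probe whose accession, with its version dropped, is a RefSeq transcript of 1 of 10 rat genes: Tac1, Tac3, Tacr1, Tacr3, Cck, Cckar, Cckbr, Nts, Ntsr1 and Ntsr2. This gave 10 probes for 8 genes, of 33849 transcript probes on the array and 6046 genes named by the same rule. Tac1, Tac3, Tacr1, Tacr3, Cck and Ntsr2 had 1 probe each, and Cckar and Cckbr had 2 each. No probe met the rule for Nts or Ntsr1, so the neurotensin system is represented by Ntsr2 alone. All 10 probes passed the filter on dim probes.

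The study compared adult male Wistar-derived rats of the alcohol-preferring (P) line, 4 animals (replicates 1 to 4), with rats of the non-preferring (NP) line, 3 animals (replicates 2 to 4). A further NP array had been dropped by the submitters on quality grounds. The lines arose by selective breeding for high and low voluntary alcohol intake. All animals were housed in pairs, no agent is named for either line, and each brain was hybridized to 1 array of the 1-colour type. Since a line is a breeding population, alleles fixed in it by chance differ between the groups along with those under selection. A whole brain averages all regions, so fewer cells of a type and less RNA per cell cannot be told apart.

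Tachykinins are short neuropeptides cut from larger precursors. Tac1 encodes the precursor of substance P and neurokinin A and is abundant in striatal projection neurons, and Tac3 encodes that of neurokinin B. Substance P acts mainly through the receptor encoded by Tacr1, and neurokinin B through that of Tacr3. Cholecystokinin, the product of Cck, is among the most abundant neuropeptides of the cerebral cortex, where its main receptor is that of Cckbr, while Cckar encodes the receptor best known from the gut and from satiety signalling. Ntsr2 encodes the low-affinity neurotensin receptor, which astrocytes as well as neurons carry. The tachykinin and cholecystokinin receptors couple mainly to Gq and phospholipase C.

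Promoters are shown for Tac1 and Tacr3, the members whose signals set the P rats apart from each other in the results that follow. The sequences are RefSeq's for build GRCr8 and run from 250 bases before to 50 bases after the annotated start, both on the plus strand. Tac1 lies at chr4:36645333-36645632 and Tacr3 at chr2:225940247-225940546. Capitals mark the half-site of the cyclic AMP response element, TGACG, searched on both strands.
Tac1: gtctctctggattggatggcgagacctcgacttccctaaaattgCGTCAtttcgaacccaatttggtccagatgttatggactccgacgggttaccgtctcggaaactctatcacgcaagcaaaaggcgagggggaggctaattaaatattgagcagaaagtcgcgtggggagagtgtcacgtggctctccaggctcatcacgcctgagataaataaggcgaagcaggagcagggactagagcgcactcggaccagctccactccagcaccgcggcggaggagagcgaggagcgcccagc
Tacr3: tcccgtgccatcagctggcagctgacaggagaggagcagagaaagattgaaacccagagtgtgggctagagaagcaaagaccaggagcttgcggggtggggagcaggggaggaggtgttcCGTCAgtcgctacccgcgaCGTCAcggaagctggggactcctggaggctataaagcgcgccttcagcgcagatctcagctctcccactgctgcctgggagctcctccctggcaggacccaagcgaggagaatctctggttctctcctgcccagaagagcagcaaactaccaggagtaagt
Tac1 held 1 half-site and Tacr3 held 2, and all 3 were read from the minus strand. At least 1 half-site was found in 21.2% of 33469 RefSeq rat promoters of the same length. The full element TGACGTCA, of which the half-site is part, was in neither window, and 1.83% of promoters held it. These matches are a description of the letters in the windows. Among the other members in the table, Tacr1, Nts and Ntsr1 held 1 half-site each, and Cckbr and Ntsr2 held 0.

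Of the transcript probes, 77.9% to 81.6% lay above background in P and 81.5% to 85.9% in NP. The shares of P 2, P 3 and P 4 were below that of every NP array. The files carry 3 scan dates. The arrays P 1, P 2, NP 2 and NP 3 share date 1, P 3 and P 4 share date 3, and NP 4 stands alone on date 2. Of 96 markers listed for 13 cell types and regions, 72 were tested and 65 lay above background on all 7 arrays. These included 7 of 7 astrocyte and 7 of 7 microglial markers, 6 of 7 for oligodendrocytes, 3 of the 4 tested for neurons and 9 of 9 for the striatum. No marker was called between the lines over all 7 arrays.

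The comparison of the lines asked whether expression of these peptides and receptors differed before any alcohol. Signals are log2 intensities after background correction and quantile normalization, differences are P minus NP, and a probe was called at an adjusted p under 0.05 over all 29003 tested probes (limma with Benjamini-Hochberg adjustment). None of the 10 probes was called, where 0.290% of all tested probes were. At an unadjusted p under 0.05 there was 1 of 10, against 11.5% of all probes. The median difference over the 10 probes was 0.04, against 0.01 over all tested probes, and the median size of a difference, regardless of sign, was 0.08 against 0.14. Tac1 and Tacr3 had the widest ranges among the members, and in both the spread lay within the P line.

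Among the peptide precursors, Cck varied least. It read 12.17, 12.15, 12.12 and 12.34 in P rats 1 to 4, against 12.05, 12.27 and 12.17 in NP rats 2 to 4. The lines overlapped, with P 4 the highest and NP 2 the lowest, and the difference was 0.03 ± 0.12 (± SE, adjusted p = 0.924 by limma). Its 95% confidence interval ran from -0.22 to 0.29, that is from 0.857 to 1.22 of the NP level. Of the tested probes with 7 values, 7.23% had a narrower range over the arrays than Cck.

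Tac3 read 7.46, 7.25, 7.57 and 7.33 in P rats 1 to 4, and 7.20, 7.59 and 7.27 in NP rats 2 to 4. The highest value and the lowest value both belonged to NP rats, and the difference was 0.05 ± 0.14 (adjusted p = 0.898 by limma, interval -0.25 to 0.35).

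Tac1 behaved otherwise. It read 10.08 and 9.93 in P 1 and P 2, 10.75 and 11.18 in P 3 and P 4, and 10.59, 10.66 and 10.66 in NP 2, NP 3 and NP 4. The NP rats, scanned on dates 1 and 2, lay within 0.08 of each other, while P 1 and P 2 lay below all of them and P 3 and P 4 above. The P mean was 10.48 ± 0.58 (SD, n = 4) and the NP mean 10.63 ± 0.04 (SD, n = 3). Over all arrays the lines differed by -0.15 ± 0.26 (adjusted p = 0.830 by limma), with an interval of -0.73 to 0.43, or 0.602 to 1.35 of the NP level. The SD of Tac1 among the P rats exceeded that of 97.9% of tested probes.

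**Figure D1:**
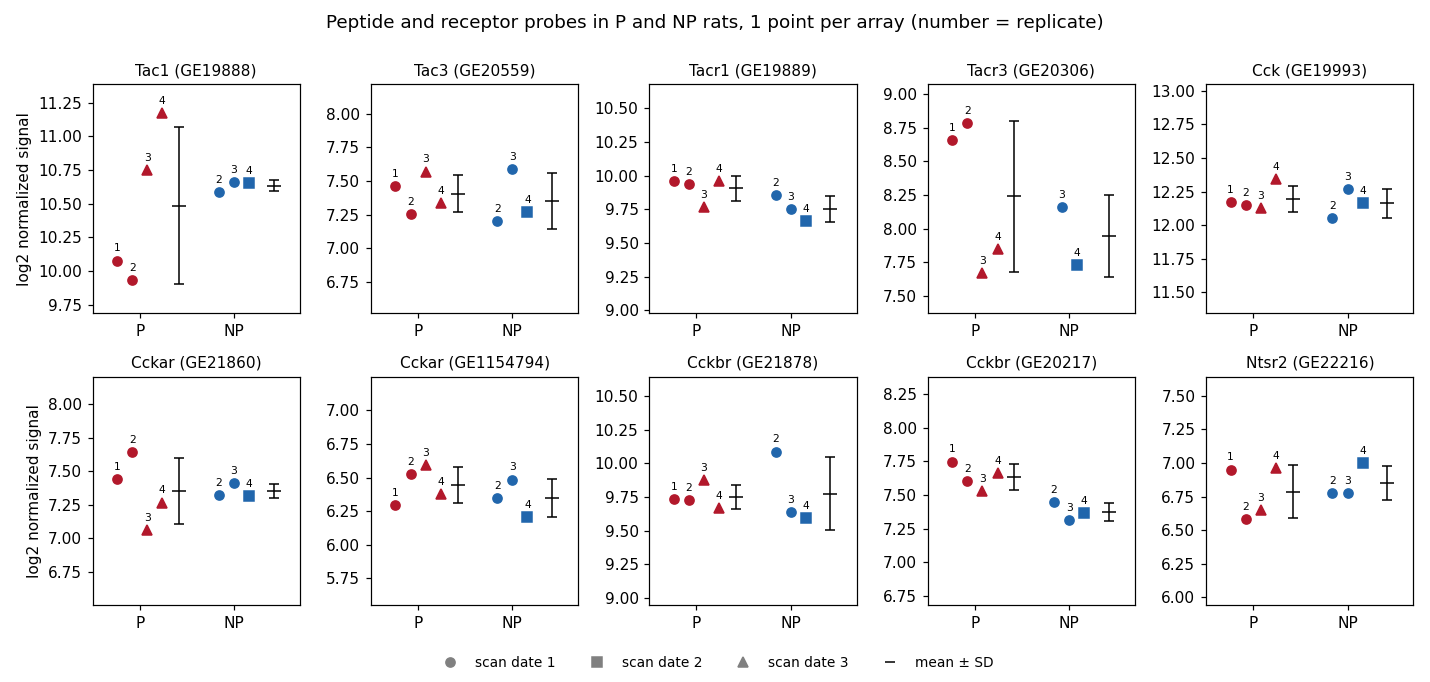
Log2 normalized signal of each of the 10 probes (vertical axes, all of the same span) in P and NP rats, 1 point per array with its replicate number, the symbol giving the scan date and the bar the mean ± SD. Tac1 and Tacr3 split the P rats into the pairs 1 and 2 and 3 and 4 in opposite directions, the P values of Cckbr probe GE20217 lie above its NP values, and the lines overlap in the other probes.

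Of the tachykinin receptors, Tacr3 showed the opposite arrangement to Tac1. It read 8.66 and 8.79 in P 1 and P 2, 7.67 and 7.85 in P 3 and P 4, and 8.16 and 7.73 in NP 3 and NP 4. The spot of NP 2 carried a contamination flag and was left out. P 1 and P 2 were higher than every other array, P 3 lay below both NP values and P 4 between them. The line difference of 0.29 ± 0.31 was not called (adjusted p = 0.722 by limma), and its interval, -0.41 to 1.00, was the widest of the 10. It was 0.0777 without NP 4 and 0.51 without NP 3, and was not called with any array left out. The SD among the P rats exceeded that of 97.4% of tested probes.

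Tacr1, the substance P receptor, read 9.96, 9.94, 9.77 and 9.96 in P rats 1 to 4, against 9.85, 9.75 and 9.66 in NP rats 2 to 4. Only P 3 fell within the NP range, while the other 3 P values were above it. The difference was 0.15 ± 0.11 (adjusted p = 0.596 by limma, interval -0.10 to 0.41).

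Both receptors for cholecystokinin were read by a pair of probes. For Cckbr, the receptor of cortex, probe GE20217 read 7.75, 7.60, 7.53 and 7.66 in P rats 1 to 4, against 7.45, 7.31 and 7.37 in NP rats 2 to 4. Every P value exceeded every NP value, which was so for 6.91% of all probes with 7 values. Its difference of 0.26 ± 0.11 had the smallest p of the members (0.0415 by limma) and was not called after adjustment (adjusted p = 0.418). The brighter Cckbr probe, GE21878, read 9.73, 9.72, 9.87 and 9.66 in P and 10.09, 9.64 and 9.59 in NP. Here the lines overlapped, NP 2 was the highest array, and the difference was -0.02 ± 0.14 (adjusted p = 0.957 by limma). The probes of this gene therefore disagreed on whether the lines separate, and their sequences were not used here to tell why.

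For Cckar, probe GE21860 read 7.44, 7.64, 7.06 and 7.27 in P rats 1 to 4, against 7.33, 7.41 and 7.31 in NP rats 2 to 4. P 1 and P 2 lay above all NP values and P 3 and P 4 below, leaving a line difference of 0.00 ± 0.15 (adjusted p = 0.993 by limma). That split was absent before scaling between arrays. The background-subtracted signal of this probe was then 112 and 102 in P 1 and P 2, and 102 and 124 in P 3 and P 4. The dimmer Cckar probe, GE1154794, ranged from 6.29 to 6.59 in P and from 6.21 to 6.48 in NP, with a difference of 0.10 ± 0.13 (adjusted p = 0.767 by limma). On this dimmer probe P 3 was the highest array, where it was the lowest on the first.

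Ntsr2 read 6.95, 6.58, 6.65 and 6.96 in P rats 1 to 4, against 6.78, 6.77 and 7.00 in NP rats 2 to 4. The P values spread on both sides of NP 2 and NP 3, and the difference was -0.06 ± 0.14 (adjusted p = 0.869 by limma, interval -0.37 to 0.24). Negative control spots had medians of 6.19 to 6.33 and 95th percentiles of 6.70 to 7.07 before scaling between arrays. Ntsr2 and Cckar probe GE1154794 counted as above background on all arrays but stayed below the highest of those 95th percentiles, that of P 4. Set against the percentile of its own array, Ntsr2 lay above it in NP 3, NP 4 and P 1, and the Cckar probe in none. Both probes were dim, which limits how far a difference in these transcripts can be read.

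Scan date 1 is the only date with both lines, 2 rats of each. Within it 1 of the 10 probes was called, Tac1, which was lower in P by -0.62 ± 0.13 (adjusted p = 0.0309 by limma). Of all probes 6.40% were called there, and 4.54% were called lower in P. Both P values of Tac1 lay below both NP values on that date, and the pairs did not overlap in 58.9% of probes. With all 7 arrays and scan date as a block, where the same 4 arrays alone inform the line difference, 5.72% of probes were called, 4.07% lower in P, and Tac1 passed (adjusted p = 0.0489 by limma). In the authors' deposited log2 values the difference within date 1 was of like size, -0.65, and did not pass (adjusted p = 0.171 by limma). Tacr3, with 1 NP value on that date, differed by 0.56 ± 0.16 (adjusted p = 0.0784 by limma), and Cckbr probe GE20217 by 0.29 ± 0.13 (adjusted p = 0.187 by limma). The remaining 7 probes differed by -0.13 to 0.18.

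**Figure D2:**
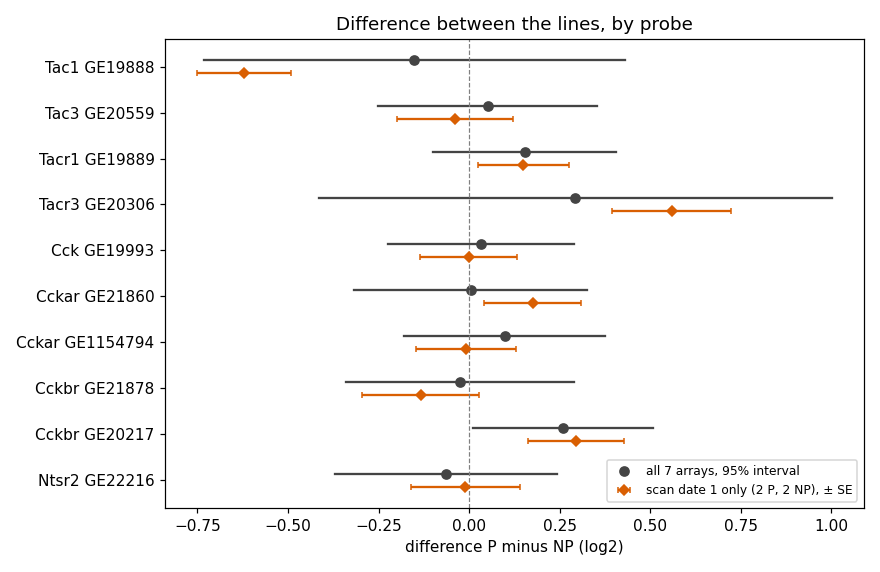
P minus NP difference on the log2 scale (horizontal axis) for each probe, over all 7 arrays with its 95% confidence interval (circles) and within scan date 1 with its SE (diamonds). Tac1 moves from -0.15 over all arrays to -0.62 within scan date 1 and Tacr3 from 0.29 to 0.56, while Cck and Ntsr2 stay within 0.07 of 0 in both.

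The P rats of date 1 (P 1 and P 2) were then compared with those of date 3 (P 3 and P 4), in a fit with the NP rats as a separate group. Tac1 was lower in P 1 and P 2 by -0.96 ± 0.16 (adjusted p = 0.00453 by limma), and Tacr3 was higher by 0.96 ± 0.17 (adjusted p = 0.00622 by limma). These were 2 of 10 member probes, where 14.0% of all tested probes were called, 6.41% higher and 7.59% lower in P 1 and P 2. Cckar probe GE21860 differed by 0.38 ± 0.14 (adjusted p = 0.0953 by limma), and the other 7 probes differed by -0.09 to 0.09. Within the P line the date and the pair of rats cannot be told apart. Without P 2, where P 1 alone is assumed to vary like the other groups, Tac1 (-0.89, adjusted p = 0.0591) and Tacr3 (0.90, adjusted p = 0.0717) both missed the threshold. Tacr3 also missed it without P 3 (0.87, adjusted p = 0.0502) and in the authors' deposited values (1.12, adjusted p = 0.0553), where Tac1 passed (-0.99, adjusted p = 0.0433).

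In the authors' deposited log2 values Tac1 read 3.37 and 3.20 in P 1 and P 2, 4.06 and 4.49 in P 3 and P 4, and 3.87, 4.00 and 3.98 in NP 2, NP 3 and NP 4. Tacr3 read 1.83 and 1.94 in P 1 and P 2, 0.65 and 0.87 in P 3 and P 4, and 1.25 and 0.67 in NP 3 and NP 4. Both genes thus kept the order of the pairs in that processing. Before any scaling, background-subtracted Tac1 signal was 931 and 667 in P 1 and P 2, against 2228 and 2701 in P 3 and P 4. For Tacr3 it was 324 and 268, against 199 and 222. Brightness itself differed between these arrays, as Cck then read 4015 and 3489 in P 1 and P 2, against 5883 and 6010. The size of the pair differences therefore depends on the scaling.

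**Figure D3:**
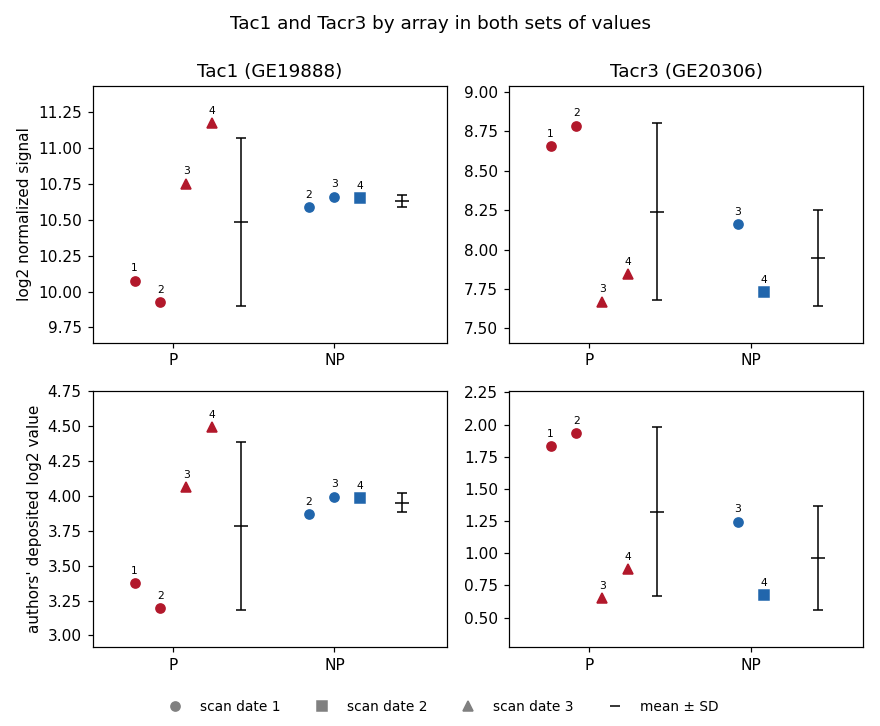
Tac1 (left) and Tacr3 (right) by array, as log2 normalized signal (top) and as the authors' deposited log2 value (bottom), with the replicate number at each point, the symbol for the scan date and the mean ± SD of each line. In both rows Tac1 is lowest and Tacr3 highest in P 1 and P 2.

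Of 69 markers of cell types and regions tested between the same pairs of P rats, 8 were called higher and 4 lower in P 1 and P 2, which is 17.4%, near the 15.7% of named genes. Those lower included Nefm (-1.21, adjusted p = 0.00296), Slc6a4 (-1.09, adjusted p = 0.0109) and the microglial marker Aif1 (-0.75, adjusted p = 0.0246), all by limma. Nefm is listed for neurons, where Snap25 (0.40), Nefl (0.08) and Uchl1 (-0.01) were not called. Those higher included Pdgfrb (0.89, adjusted p = 0.00543), Slc32a1 (0.80, adjusted p = 0.0178) and the microglial marker Cd68 (0.60, adjusted p = 0.0191), all by limma. The lists of microglia, of hypothalamus and brainstem and of GABAergic interneurons each held 1 marker called higher and 1 called lower. Among markers of cortex and hippocampus, 2 of 4 were called higher, the vesicular glutamate transporter Slc17a7 (1.52 ± 0.23, adjusted p = 0.00381 by limma) and Neurod2 (0.72 ± 0.16, adjusted p = 0.0171 by limma). Wfs1 (0.36, adjusted p = 0.207) and Camk2a (0.26, adjusted p = 0.197) were not called, both by limma. Their list's summed linear level, over the 3 with all values, was 3009 to 4022 in P 1 and P 2, 1328 to 1595 in P 3 and P 4, and 1661 to 2543 in NP. That sum is mostly Slc17a7, which read 11.77 in P 1, where Wfs1 read 7.54 and Camk2a 8.42. It therefore adds little to the value of Slc17a7 itself.

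Of 9 striatal markers, 1 was called, Ppp1r1b, which was higher in P 1 and P 2 (0.65 ± 0.14, adjusted p = 0.0129 by limma). The other 8 did not pass and differed in both directions. Of markers of the striatal neurons that express Tac1, Drd1 differed by -0.36 ± 0.19 (adjusted p = 0.217) and Pdyn by -0.26 ± 0.13 (adjusted p = 0.219). Of markers of the other class of striatal neurons, Drd2 differed by 0.44 ± 0.17 (adjusted p = 0.105), Adora2a by 0.41 ± 0.18 (adjusted p = 0.145) and Penk by 0.02 ± 0.15 (adjusted p = 0.938). Rgs9 differed by 0.37 and Pde10a by 0.28. The striatal sum was 9700 to 9828 in P 1 and P 2, 8413 to 9260 in P 3 and P 4, and 8618 to 9598 in NP.

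No marker of cerebellum, choroid plexus, oligodendrocytes or pituitary and pineal was called between these pairs. Within scan date 1, where Tac1 was called between the lines, 4 of 70 markers were called higher and 4 lower in P. Of named genes, 6.30% were called there in either direction. The called markers included Adora2a (0.62, adjusted p = 0.0316 by limma) and Neurod2 (0.94), both higher. The spot of NP 2 was missing for Neurod2, so NP 3 alone stands for the NP line there. Nefm (-0.81, adjusted p = 0.0298), Aif1 (-1.23, adjusted p = 0.0141) and Slc6a4 (-1.05, adjusted p = 0.0120) were lower, all by limma. Each of these lower markers was the only marker of its list called there. The part of tissue makeup in the Tac1 and Tacr3 results was not tested.

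Genes that make, cut or transmit these peptides were taken from a list of 51, of which 38 were tested with 1 probe each. None was called between the lines, where 0.176% of 5677 named genes were, and the median difference was 0.04, against 0.03 over all named genes. By role, the smallest p belonged to Tacr2, the neurokinin A receptor (0.39 ± 0.14, adjusted p = 0.375), Pcsk1n, an inhibitor of prohormone convertase (0.31 ± 0.16, adjusted p = 0.461), Prep, a prolyl endopeptidase that cleaves substance P and neurotensin in vitro (0.45 ± 0.20, adjusted p = 0.426), Plcb4, a phospholipase C of the Gq pathway (-0.36 ± 0.11, adjusted p = 0.324), and Grk3, a receptor kinase (0.13 ± 0.15, adjusted p = 0.755), all by limma. The spot of NP 2 was missing for Prep, so NP 3 and NP 4 alone stand for the NP line in its difference. Within scan date 1 there were 2 related genes called of 37, both higher in P, against 6.30% of named genes. They were Furin, a proprotein convertase (0.79, adjusted p = 0.0301), and Gna11, a Gq family subunit (0.74, adjusted p = 0.0182), chosen after their values were seen.

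Between the pairs of P rats, 10 of these 37 genes were called, 8 higher and 2 lower in P 1 and P 2, which is 27.0% against 15.7% of named genes. By role they were 4 of 12 genes of prohormone processing and granules, 2 of 9 of peptide breakdown, 2 of 10 of Gq coupled signalling and 2 of 4 of receptor desensitization. All 10 are named here after their values were seen. Those higher in P 1 and P 2 were the granule peptide precursor Vgf (0.79), Furin (0.94), the tyrosylprotein sulfotransferase Tpst1 (0.57), the peptidase Thop1 (0.47), Gna11 (0.78), the inositol trisphosphate receptor Itpr3 (0.56), and the receptor kinases Grk2 (1.05) and Grk6 (0.63), with adjusted p of 0.00454 to 0.0424 by limma. Those lower were Scg5, the chaperone of prohormone convertase 2 (-0.998 ± 0.226, adjusted p = 0.0148 by limma), and Tpp2, a peptidase that inactivates cholecystokinin (-1.18 ± 0.19, adjusted p = 0.00601 by limma). The spot of P 1 was missing for Tpp2, so P 2 alone stands for the date 1 P rats, its spread is taken from the other groups, and the call has no replicate check on that side. Genes of prohormone processing thus differed in both directions between these animals.

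**Figure D4:**
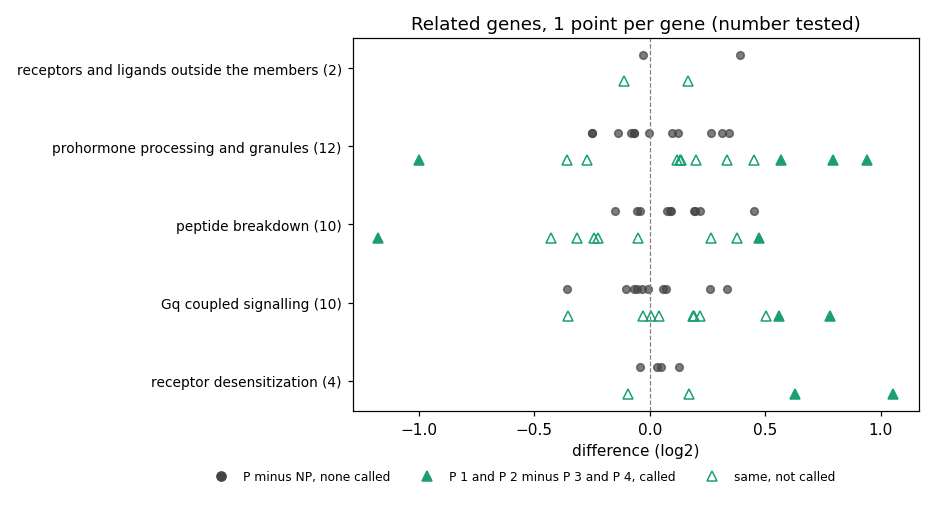
Log2 difference (horizontal axis) of each tested related gene by role, P minus NP over all arrays (circles, none called) and P 1 and P 2 minus P 3 and P 4 (triangles, filled where called). The 38 line differences lie between -0.36 and 0.45, while the differences between the pairs of P rats reach -1.18 (Tpp2, with P 2 alone on the date 1 side) and 1.05.

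The named genes most like each member over the arrays were found by Pearson's r, as a description. The 3 highest of 5295 genes are of necessity close, and points on 1 array share its labelling and scan. Tac1 was closest to Pms1 (r = 0.984, 7 arrays), a mismatch repair gene, then Igfbp6 (0.983) and Selenot (0.971). The genes closest to Tacr3 included Zfp384 (0.997, 6 arrays) and Slc25a39 (0.994). Tacr1 was closest to Rbck1 (0.995), Pcsk1n (0.990) and Tacr2 (0.989), and both Pcsk1n and Tacr2, another tachykinin receptor, are on the related list. Tacr1 itself varied little, with a range of 0.30 that exceeded that of 8.66% of tested probes with 7 values. Cck followed Npdc1 (0.896), Card9 and Vcp, and Tac3 followed Gja6 (0.922), Fam161a and Tm9sf1. Cckar probe GE21860 followed Mycbpap (0.996), Phf7 and Prss21, Cckbr probe GE21878 followed Clec2d (0.976), Irf9 and Sec22a, and Ntsr2 followed Selenof (0.982), Ppara and Dlg1.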

How the data were processed

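Biotin-labelled RNA from 7 whole brains was read on 1-colour arrays, 1 rat each. Per the file headers, the deposited scanner tables hold spot and local background intensity, a background-subtracted and a scaled intensity, and a flag per spot. The authors also deposited log2 values, which followed log2 of the scaled intensity (r of 0.999 to 1.000) with medians near 0, and a further adjustment between arrays is unknown. The sources used here do not give the scanner software.

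Intensities were corrected by normexp (offset 50), spots with a mask, shape or contamination flag were dropped, and transcript probes were quantile normalized (limma 3.58.1, R 4.3.3). Probes above background on at least 3 arrays were kept, and 29003 were fitted with lmFit and eBayes without a block. Accessions without versions matched RefSeq transcripts of the GRCr8 table for 7207 probes. Related genes and markers used their brightest probe. Members and lists were chosen with earlier results of these data known. Named are all members, the related gene with the smallest p per role, any called between the lines over all 7 arrays, and the 3 genes most like each member. The values of 1 such gene and of 1 marker are not reported here.

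Samples with the same replicate number were not paired by any label. Tested on simulated data of 29003 probes, the fit recovered 11% of changes of 0.5, 71.3% of changes of 1 and 95.8% of changes of 2 on the log2 scale. The simulated arrays had independent noise, no scan dates and no missing spots, with 200 probes changed in each of 5 runs. These rates therefore hold for that setting and may differ in the real arrays. Alternatives were other backgrounds, scalings, filters, variance models and weights, the authors' values, each array left out, and a block for scan date or for replicate number. Figures were drawn with matplotlib 3.10.9.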

Additional observations from a re-analysis of the deposited data

Results flagged for a closer look

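Tacr1 in rat P 3 read 9.77, apart from the other P rats at 9.94 to 9.96, which stood close together. It was 1 of 10 sets of P values examined for a lone distant sample, and about 1 in 20 such sets would be set apart by chance. The NP line, with 3 rats, was not examined in this way.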

How the results depend on the processing

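No member probe passed in the line comparison under any alternative other than those on scan date, and none of the related genes did. Within scan date 1 and with scan date as a block, 1 member probe (Tac1, -0.62 in both) and 2 related genes were called. Over all probes the count of 84 became 1850 within scan date 1, 1660 with scan date as a block, 151 with array weights, 51 in the authors' deposited values, 36 in those values within scan date 1 (added after seeing the data), and 49 among probes above background on all 7 arrays. Leaving out 1 array gave 51 to 121 calls, with 51 without NP 4 and 53 without NP 3. The replicate number as a block gave 104 calls, 0 of them members. Deviations of same-numbered rats correlated at 0.02 to 0.10, and none of the 3 NP rats correlated best with its own number.

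Between the pairs of P rats 2 member probes passed. The count was 3 with 75th percentile scaling. It was 1 with plain background subtraction (Tacr3 at 1.16, adjusted p = 0.0520), in the authors' values, and among probes above background on all 7 arrays, where Tacr3 is not tested, and 0 to 2 when 1 array was left out. These alternatives were chosen after seeing the data, and the cause was not tested.

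Signs that changed, none of them called, were those of Cckar GE21860 (-0.00398 with plain subtraction, -0.0448 with 75th percentile scaling, -0.0324 with cyclic loess, -0.00770 in the authors' values, -0.0104 with array weights, -0.0258 with the replicate block, -0.0925 to 0.10 without 1 array), Ntsr2 (0.0244 with array weights, -0.12 to 0.0106 without 1 array) and Tacr3 (-0.19 with the replicate block). With scan date as a block and within scan date 1, Tac3 (-0.0385), Cck (-0.00115), Cckar GE1154794 (-0.00758) and Grk3 (-0.10) changed sign. In the authors' values within scan date 1 Tac3 (-0.0823), Cckar GE1154794 (-0.0251) and Grk3 (-0.22) did. Without 1 array Tac1 ranged from -0.38 to 0.0339, Tac3 from -0.0242 to 0.17, Cck from -0.0208 to 0.0861, Cckbr GE21878 from -0.11 to 0.13 and Grk3 from -0.0521 to 0.23. The mean of both Cckbr probes gave 0.12, where GE21878 alone gave -0.02. Dim signal limits Ntsr2 and Cckar GE1154794, and on simulated data without scan dates 7 arrays recovered 11% of differences of 0.5 on the log2 scale.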
